A study of Mus musculus with 32 samples.

Results

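N6-methyladenosine (m6A) readers and demethylases were followed in cultured mouse hippocampal neurons whose cell bodies (soma) and neurites had been separated. The group was set by gene function, not by measured values, and holds 10 genes, Ythdf1, Ythdf2, Ythdf3, Ythdc1, Ythdc2, Fto, Alkbh5, Igf2bp1, Igf2bp2 and Igf2bp3, of 55573 genes in the count table. Hippocampi of newborn pups were pooled within single litters and grown on a microporous membrane, so that soma stayed on the top and neurites grew through to the bottom. RNA-seq was made from 16 libraries in 8 groups of 2, which crossed genotype, compartment and treatment, and in vitro DART-seq, which marks m6A by editing a neighbouring C to U, was made from further libraries of the same design. WT neurons came from C57BL/6 mice and Mettl3 KO (Mettl3-/-) neurons from Mettl3 flox/flox mice. All cultures of both genotypes carried an adeno-associated virus encoding Cre-P2A-dTomato, added on day 7, and all were silenced on day 14 for 16 h with tetrodotoxin (1 µM) and D-AP5 (50 µM). Untreated cultures received nothing more, and KCl-treated cultures were depolarized with 55 mM KCl for 2 h before RNA was taken at 15 days.

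These cultures have limits as a model. Cre was driven by the synapsin promoter, which is active in neurons, so glia in the culture were not its target. The soma fraction can also hold neurites that did not cross the membrane. Replicates came from distinct litters, and untreated and KCl-treated cultures of a replicate from the same litter. WT and floxed litters came from different mouse lines, and the background strain of the floxed line is not stated. Line, strain and litter therefore cannot be told apart from the genotype. With 2 libraries per group, p-values measure only the spread between these samples. In such bulk samples, fewer cells of a type and less RNA per cell cannot be told apart.

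m6A is placed on mRNA in the nucleus, at adenosines ahead of a cytosine, by a complex in which METTL3 is the catalytic subunit and METTL14 its partner. Reader proteins then bind the mark. YTHDF1, YTHDF2 and YTHDF3 are cytoplasmic proteins with a YTH domain that have been linked to decay and translation of methylated mRNAs. YTHDC1 is the nuclear YTH protein, with roles in splicing and export, and YTHDC2 is a helicase known best from meiosis. IGF2BP1, IGF2BP2 and IGF2BP3 are RNA-binding proteins that stabilise and transport mRNAs and have been described as m6A readers. FTO and ALKBH5 are the demethylases that remove the mark.

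The mRNAs of the readers and demethylases themselves carried DART-seq sites. The site list held 11 sites in 6 of the 10 genes, and the other 4, Ythdc2, Igf2bp1, Igf2bp2 and Igf2bp3, were not listed. The sequences around the sites of the YTH reader mRNAs and a coding and a 3′UTR site of each demethylase mRNA are shown because they are among the places in these transcripts where the mark was read. Each is a 21-base window of the GRCm38 genome on the strand of the gene, in which the capitals mark the RAC motif (R is A or G) that ends in the edited C.
Ythdf1, chr2:180911526-180911546, minus strand: tcaagcatAACatggacattg
Ythdf2, chr4:132204274-132204294, minus strand: cgagaataAACcagtgaccaa
Ythdf3, chr3:16204872-16204892, plus strand: gctggaaaAACtaaaggccat
Ythdc1, chr5:86836239-86836259, plus strand: tggtcaatAACtgccatagaa
Fto site 1, chr8:91522810-91522830, plus strand: cccggtggAACaaaggagtga
Fto site 4, chr8:91666813-91666833, plus strand: gaactagaGACatccatccca
Alkbh5 site 1, chr11:60538465-60538485, plus strand: aagtccatGACgtcccgggac
Alkbh5 site 2, chr11:60558324-60558344, plus strand: aaccactgGACtccggctttt

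All 4 YTH sites read AAC, whereas both Alkbh5 sites read GAC, and over the 11 sites AAC occurred 6 times and GAC 5 times. The single sites of Ythdf1, Ythdf2 and Ythdf3 lay in the coding sequence within exon 4 of 5 of the longest coding transcript that held the site. That of Ythdf3 lay in an exon of 3 of 3 coding transcripts, that of Ythdf1 in 2 of 3 and that of Ythdf2 in 1 of 3. The Ythdc1 site lay in the 3′UTR, 341 bases after the stop codon. Fto held 5 sites. Site 1 lay in the coding part of exon 8 of a transcript, and in an exon of 2 of 6 coding transcripts. The other 4 lay in the 3′UTR of the last exon of another transcript, the only 1 of the 6 that held them. They were between 106 and 745 bases after the stop codon. Alkbh5 site 1 lay in the coding part of exon 1, and site 2 lay 3919 bases into the 3′UTR. In all, 5 sites were coding and 6 were in a 3′UTR, and none of the 11 windows occurred in the annotated transcripts of another gene.

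The mRNAs of the 2 demethylases, which held several sites, had the highest summed editing among these genes. The study's score for an RNA adds up the C-to-U fraction over its called sites and was used here as the authors' mean, without replicates or read depth, so no test or interval could be given. In WT neurons the score was 0.251 for Fto, 0.176 for Alkbh5, 0.130 for Ythdf3, 0.0644 for Ythdf1, 0.0433 for Ythdc1 and 0.0311 for Ythdf2, against a median of 0.103 over the 5643 RNAs with a score. Divided by the number of sites, the order differed: Ythdf3 stood at 0.130, Alkbh5 at 0.0878, Ythdf1 at 0.0644 and Fto at 0.0502. On the summed score, Fto lay above 84.1% of those RNAs and Ythdf2 above 12.8%. Site 4 alone gave a fraction of 0.140 in Fto, and the other Fto sites gave 0.0163 to 0.0654. In Mettl3 KO neurons the score was 0.0771 for Fto and 0.00211 for Ythdf2, and the KO score of the 6 RNAs was between 6.79% and 30.7% of WT, where the median RNA kept 30.8%. The calling of sites itself required more editing in WT than in KO, so the direction was fixed by the method.

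Editing differed in direction between compartments. Fto scored 0.380 in WT neurites and 0.131 in WT soma, and Alkbh5 scored 0.278 and 0.106. Neurites were thus 2.89 and 2.63 times soma for these demethylase mRNAs, ratios above those of 90.2% and 88.4% of all scored RNAs. The cytoplasmic readers lay at the other end: the neurite score was 0.297 of the soma score for Ythdf1, 0.377 for Ythdf2 and 0.487 for Ythdf3, below the median ratio of 1.30 over 5594 RNAs. Only 5.63% of RNAs had a lower ratio than Ythdf1. Ythdc1, with scores of 0.0441 in neurites and 0.0427 in soma, was nearly even. Each YTH value rested on 1 site, as did the values of 32.3% of the scored RNAs, and soma and neurite scores combined untreated and KCl-treated cultures.

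**Figure D1:**
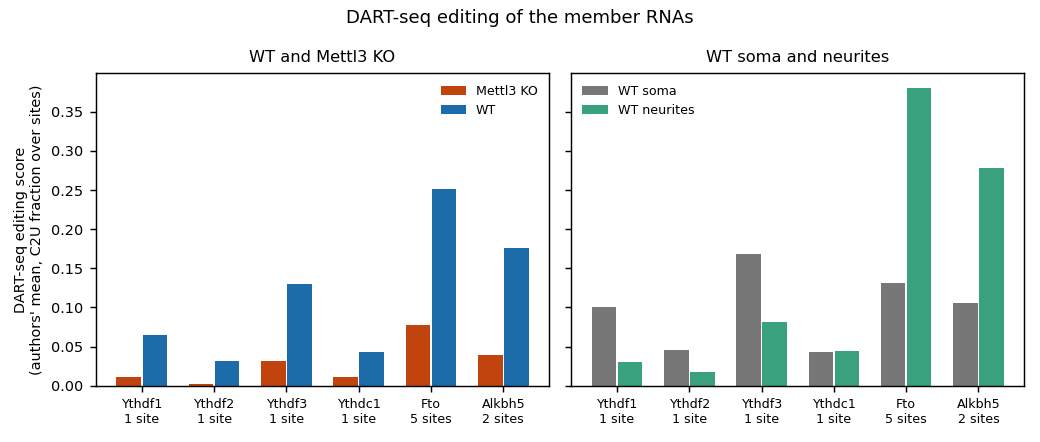
DART-seq editing score (sum of C-to-U fractions, y axis from 0) of the 6 reader and demethylase mRNAs with called sites, as the authors' means in WT and Mettl3 KO neurons and in WT soma and neurites, with no error bars because no replicate values were used. Fto and Alkbh5 stand higher in neurites (0.380 and 0.278) than in soma (0.131 and 0.106), and Ythdf1, Ythdf2 and Ythdf3 stand higher in soma.

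The RNA-seq libraries held between 33789183 and 71394235 counted fragments. Mettl3 was lower in KO than in WT in each of the 4 group pairs with no overlap, at 9.05 to 16.7 CPM (counts scaled to library size) in WT and 3.91 to 10.98 CPM in KO, although counts over the whole gene include exons that Cre does not remove and no difference passed the threshold. Fos, an immediate early gene, rose in WT soma from a mean of 12.7 to 2977 CPM after KCl. Defining markers of neurons were present in every library. Insert 1 of the KCl-treated KO neurons, both soma and neurites, stood apart from the other 14 libraries in every marker list. Its 10 neuronal markers summed to 2033 to 2047 CPM against 4390 to 13148 elsewhere, its astrocyte markers to 9916 to 19360 against 1159 to 6745, its oligodendrocyte lineage markers to 3670 to 7336 against 58.0 to 191, its microglial markers to 173 to 236 against 10.4 to 34.7, its fibroblast and vessel markers to 140 to 748 against 12.9 to 82.9, and its markers of dividing cells to 440 to 533 against 55.3 to 136. No marker was at 0 in any library. Many of the results with KCl-treated KO neurons are therefore also given without this insert. The part these cells had in them was not tested.

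All 10 genes passed the filter on low counts, at levels that spanned more than 2 orders of magnitude. Compared per kilobase of exon, the order in untreated WT soma ran from Ythdf2 at 19.8 ± 0.0398 CPM per kb (SD, n = 2) through Fto at 13.4 ± 0.605, Ythdf3 at 8.85, Alkbh5 at 7.41 and Ythdf1 at 6.91 to Ythdc1 at 2.25, Ythdc2 at 1.30 and Igf2bp3 at 0.826. Igf2bp1 (0.166) and Igf2bp2 (0.0958) were the least abundant, and no neighbours in this order overlapped between replicates. The order depends on exon length, which counts all annotated exons of a gene and can exceed that of a single mRNA. It was 13651 bases for Ythdc1 and 3316 for Ythdf1. In untreated WT neurites Fto (19.4 CPM per kb) stood ahead of Ythdf2 (16.98), Alkbh5 (10.1) ahead of Ythdf3 (9.50) and Igf2bp3 (1.29) ahead of Ythdc2 (1.03), but the replicates of each of these 3 pairs overlapped. Reads of Ythdf2 may be shared with the pseudogenes Gm6823 and Gm8401, which match it over 1840 and 1740 bases at 95.2% and 96.3% identity, and 18.7% of the exon length of Igf2bp3 overlaps Malsu1 on the other strand. Both levels are uncertain for that reason, as reads that mapped more than once were counted and no strand setting is stated. Ythdc1 shares 631 exon bases with Gm43055 on the same strand.

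**Figure D2:**
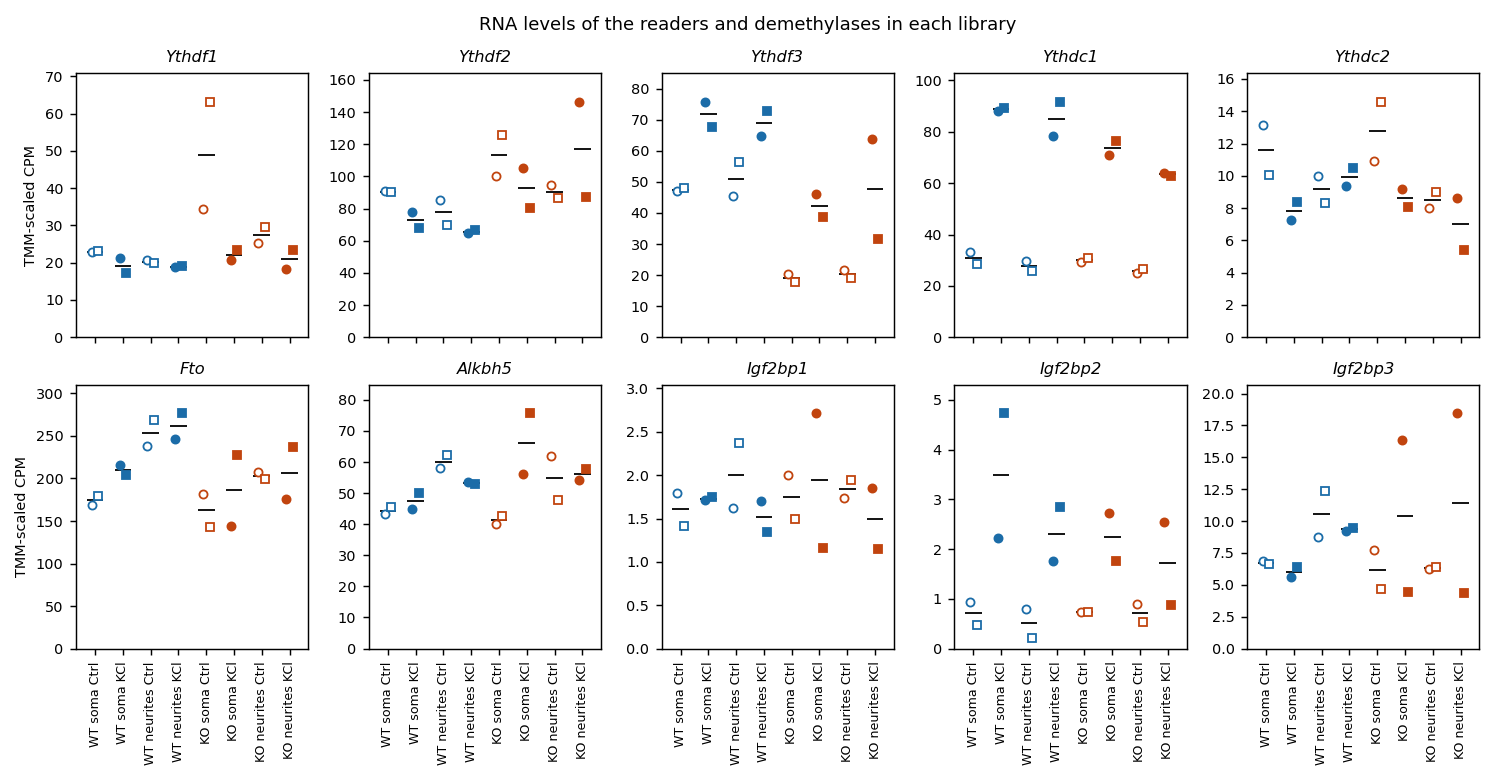
TMM-scaled CPM (y axis from 0 in each panel) of the 10 readers and demethylases in each of the 16 RNA-seq libraries, by compartment, with WT in blue and Mettl3 KO in orange, untreated libraries open and KCl-treated libraries filled, circles for replicate 1, squares for replicate 2 and a line at the mean of 2. The KCl-treated Ythdc1 libraries lie above all untreated ones in both genotypes and compartments, and the untreated KO libraries of Ythdf3 (17.9 to 21.8) lie below all other Ythdf3 libraries.

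The comparison of neurites with soma asks which mRNAs are enriched in the processes. In untreated WT neurons the demethylases Fto and Alkbh5 and the reader Igf2bp3 had higher values in neurites without overlap, and Ythdf1, Ythdf2 and Ythdc2 had lower ones. For Ythdc2 the lower soma library and the higher neurite library were almost equal. Fto measured 169 and 180 CPM in soma and 238 and 269 CPM in neurites. The 2 neurite libraries lay above both soma libraries, a log2 difference of 0.45 ± 0.11 (SE; edgeR adjusted p = 0.0189), which is below the 1.5-fold also required for a call. Alkbh5 measured 43.3 and 45.4 CPM in soma against 58.0 and 62.4 CPM in neurites (0.35 ± 0.11, edgeR adjusted p = 0.0536). Of the 10 genes 0 were called, where 13.5% of the 23200 genes tested were, with edgeR's quasi-likelihood test at an adjusted p of at most 0.05 and 1.5-fold. At an unadjusted p of at most 0.05, with no fold limit, there were 5, but no share of all genes was taken at that limit. Groups did not overlap for 6 of the 10 genes, and 64.8% of all genes tested did not overlap. Cell type markers moved in the same contrast, from soma to neurites: the neuronal sum was 5207 to 5616 against 11001 to 13148 CPM, the astrocyte sum 1159 to 1182 against 2050 to 3143, the oligodendrocyte lineage sum 58.0 to 66.5 against 115 to 124, the microglial sum 10.4 to 11.4 against 17.1 to 19.97 and the fibroblast and vessel sum 12.9 to 17.6 against 32.5 to 82.9, while dividing cell markers overlapped. The neuronal list includes Camk2a, at 727 to 7723 CPM over the libraries, which the paper places among the transcripts most enriched in neurites. In that sum, cell composition and the location of mRNAs cannot be told apart. The part of the markers in these differences was not tested.

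The YTH readers were not called in untreated WT neurons. Ythdc2 had the largest difference among them, with a mean of 11.6 CPM in soma and 9.17 CPM in neurites. Its log2 values are given below with KCl. Ythdf2 measured 90.6 and 90.4 CPM in soma and 85.3 and 69.9 CPM in neurites (−0.31 ± 0.12, edgeR adjusted p = 0.0987). Ythdf1 gave −0.27 ± 0.13 and Ythdc1 −0.24 ± 0.13, and Ythdf3 was at 0.01 ± 0.13. The median over the 10 genes was −0.11, close to the −0.0965 of all genes. Among related genes, none of 9 m6A writers was called. None was called of 11 other RNA-binding proteins, listed as proposed to bind m6A or RNA opened by it and named other binders here. These were Hnrnpa2b1, Hnrnpc, Rbmx, Fmr1, Fxr1, Fxr2, Elavl1, Prrc2a, Srsf3, Srsf10 and Nxf1, not all of which bind the mark itself. Of 11 subunits of CCR4-NOT, the deadenylase complex that YTHDF2 recruits, 1 was lower in neurites: Cnot10, at 40.7 against 58.0 CPM (−0.60 ± 0.11, edgeR adjusted p = 0.00511). The medians of these lists were −0.20, −0.31 and −0.29.

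After KCl the demethylases kept values of the same sign. Fto measured 215 and 204 CPM in soma and 246 and 277 CPM in neurites (0.34 ± 0.11, edgeR adjusted p = 0.0707). Igf2bp3, whose best known roles are in development and tumours, was the 1 gene of the 10 called, where 9.54% of all genes were called. Its level was 5.64 and 6.40 CPM in soma and 9.24 and 9.46 CPM in neurites, with no overlap and a log2 difference of 0.65 ± 0.19 (edgeR adjusted p = 0.0496). In untreated neurons it was 6.84 and 6.65 CPM in soma and 8.73 and 12.4 CPM in neurites (0.55 ± 0.19, edgeR adjusted p = 0.0681). With the replicate number as a block, which would stand for the shared insert or litter, it was 0.66 (edgeR adjusted p = 0.0565). The call after KCl stood at the threshold and was lost in each of the 4 fits that left out a library, whose group then held 1 library that was assumed to vary like the others, for which log2 differences were 0.66 and 0.65 without neurite replicate 1 and 2 and 0.58 and 0.76 without soma replicate 1 and 2. Of the writers, Rbm15b, an adaptor subunit, was higher in neurites at 19.3 against 12.8 CPM (0.61 ± 0.15, edgeR adjusted p = 0.0229), and no other gene of the 3 lists was called. Rbm15b was also higher in untreated neurites, at 24.2 against 15.7 CPM, though it was not called there. Between KCl-treated soma and neurites the neuronal sum was 6343 to 6459 against 11132 to 12093 CPM and the astrocyte sum 1655 to 1674 against 2367 to 2814. The oligodendrocyte lineage sum was 58.5 to 62.7 against 77.9 to 85.6, the microglial sum 15.8 to 17.6 against 18.6 to 26.9 and the dividing cell sum 100 to 101 against 81.1 to 92.9. Fibroblast and vessel sums overlapped, and the part of these markers was not tested. The neuronal sum again includes Camk2a, with the limit given above.

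**Figure D3:**
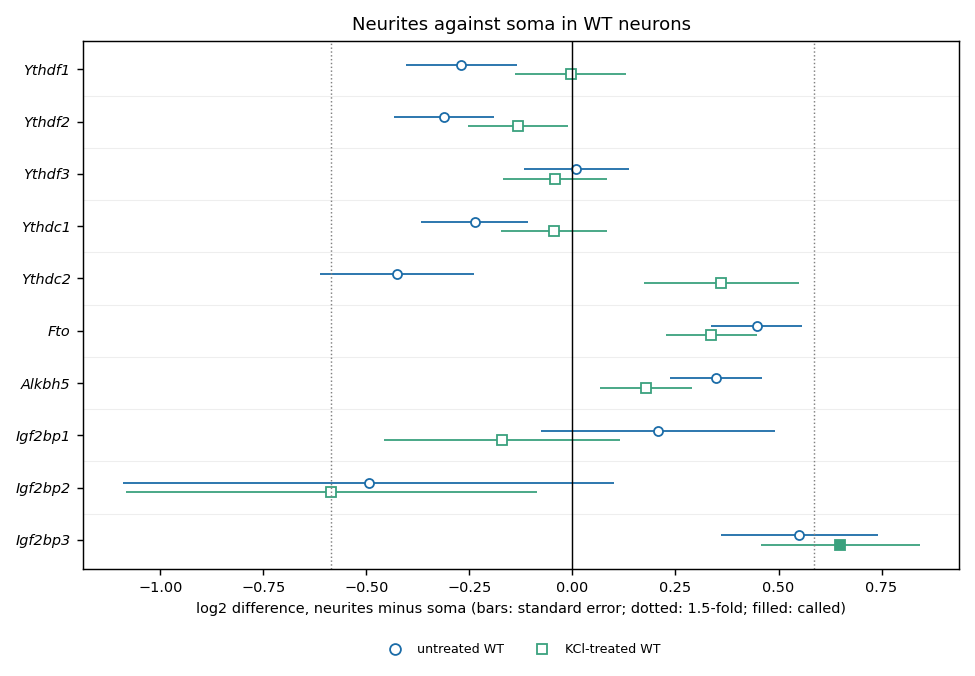
Log2 difference between neurites and soma (x axis) for the 10 genes in untreated (circles) and KCl-treated (squares) WT neurons, with standard errors as bars, dotted lines at 1.5-fold and filled symbols for called differences. Fto, Alkbh5 and Igf2bp3 lie to the right of 0 in both conditions, the Igf2bp3 value after KCl (0.65) is the only filled symbol, and Ythdc2 moves from −0.43 to 0.36.

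The next comparison asks whether depolarization changed the location of these mRNAs. Ythdc2 measured 13.1 and 10.02 CPM in untreated WT soma and 7.25 and 8.37 CPM after KCl. In neurites it was 10.02 and 8.33 CPM untreated and 9.36 and 10.5 CPM after KCl. Treated soma libraries lay below untreated ones, and the neurite libraries overlapped, so that neurite enrichment was −0.43 ± 0.19 before and 0.36 ± 0.19 after KCl. The change in enrichment, fitted with a term for each insert, was 0.79 ± 0.23 (edgeR unadjusted p = 0.00795, adjusted p = 0.999). It was the 1 gene of the 10 past the study's limits of 1.5-fold and an unadjusted p of 0.05, which 3.36% of all genes passed, and with adjusted p-values 0% passed. Without untreated WT soma replicate 1 the value was 0.63 and the call was lost. The other 9 genes changed by −0.38 to 0.27.

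The clearest response to KCl was that of Ythdc1, the nuclear YTH reader (ENSMUSG00000035851, chr5:86804221-86836659, plus strand). In WT soma it measured 33.2 and 28.3 CPM untreated and 88.2 and 89.4 CPM after KCl. Treated libraries lay far above untreated ones, a log2 difference of 1.45 ± 0.13 or 2.73-fold (edgeR adjusted p = 5.97e-05). WT neurites went from 29.8 and 25.8 CPM to 78.5 and 91.8 CPM, a log2 difference of 1.64 ± 0.13 or 3.13-fold (edgeR adjusted p = 2.99e-05). Per kilobase, Ythdc1 in soma thereby passed Ythdf1, at 6.51 against 5.80 CPM per kb. This order depends on the exon lengths used, 13651 bases for Ythdc1 and 3316 for Ythdf1. In CPM, untreated WT soma already held more Ythdc1 than Ythdf1, at means of 30.8 and 22.9. KO neurons showed the same direction of KCl response for Ythdc1. Soma went from 29.2 and 30.9 CPM to 70.9 and 76.4 CPM (1.29 ± 0.20, edgeR adjusted p = 0.00976). Neurites went from 25.0 and 26.6 CPM to 64.1 and 62.8 CPM (1.30 ± 0.20, edgeR adjusted p = 0.00975). Without insert 1 of the KCl-treated KO neurons these differences were 1.30 and 1.27, with edgeR adjusted p of 0.00932 and 0.0114. The KO calls were lost without untreated KO soma replicate 2 (1.33, edgeR adjusted p = 0.0660) and without either untreated KO neurite library (1.25 without replicate 1, 1.30 without replicate 2). In WT soma the astrocyte marker sum was 1159 to 1182 CPM untreated and 1655 to 1674 after KCl, and that of dividing cells 56.7 to 57.2 and 100 to 101. The neuronal sum was 5207 to 5616 and 6343 to 6459, the microglial sum 10.4 to 11.4 and 15.8 to 17.6, and the fibroblast and vessel sum 12.9 to 17.6 and 23.5 to 31.7. Oligodendrocyte lineage sums overlapped in soma. In WT neurites the dividing cell sum was 55.3 to 59.9 against 81.1 to 92.9, and the oligodendrocyte lineage sum fell from 115 to 124 to 77.9 to 85.6. Neuronal, astrocyte, microglial and fibroblast and vessel sums overlapped there. The part of these shifts in the KCl comparisons was not tested. The difference of the soma response between genotypes was −0.23 ± 0.27 (edgeR adjusted p = 0.991).

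Among RefSeq promoters (GRCm38.p6, 250 bases before to 50 after the start), Ythdc1 held 2 copies of TGACG, the short form of the cAMP response element bound by CREB, searched on both strands. The windows are printed because Ythdc1 was the gene called after KCl in all 4 comparisons; capitals mark the motif or its reverse complement.
Ythdc1 at −200 to −196, chr5:86804058-86804078, plus strand: tccctggaCGTCAagtttgcg
Ythdc1 at −87 to −83, chr5:86804171-86804191, plus strand: ccgcactgTGACGttccgcga

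The same letters occurred once in the Ythdf1 promoter, in none of the promoters of Ythdf2, Fto, Alkbh5, Igf2bp2 and Igf2bp3, and in 20.8% of all 32851 promoters. None of these 7 promoters held the full element TGACGTCA (1.79% of all promoters), the AP-1 motif TGANTCA (7.81%) or the EGR motif GCGTGGGCG (0.612%). Such matches describe letters in a window and not binding.

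Igf2bp2, a reader of low abundance here (ENSMUSG00000033581, chr16:22059009-22163299, minus strand), also rose with KCl in WT. Soma libraries held 0.939 and 0.478 CPM untreated and 2.22 and 4.74 CPM after KCl, which were 76 and 31 fragments against 117 and 326. Neurite libraries held 0.802 and 0.211 CPM untreated and 1.77 and 2.84 CPM after KCl. Treated and untreated libraries did not overlap in either compartment, with log2 differences of 2.21 ± 0.53 in soma (edgeR adjusted p = 0.0197) and 2.12 ± 0.58 in neurites (edgeR adjusted p = 0.0483). The precision is set by few fragments, 7 in untreated neurite replicate 2, and PCR reads without molecular identifiers add error beyond counting. The soma call was lost without untreated replicate 1 (2.87), untreated replicate 2 (1.90) or KCl replicate 2 (1.54), and the neurite call without untreated replicate 2 (1.55), KCl replicate 1 (2.41) or KCl replicate 2 (1.75). The replicate block kept the soma call (2.21) and lost the neurite call (2.12, edgeR adjusted p = 0.0776). In KO the values were 1.60 ± 0.69 in soma and 1.28 ± 0.69 in neurites, not called (edgeR adjusted p = 0.281 and 0.340). Without insert 1 of the KCl-treated KO neurons they were 1.21 and 0.28.

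Ythdc1 and Igf2bp2 were the 2 of 10 genes called in WT soma, where 6.81% of genes were called at 2-fold, and the 2 called in WT neurites, where 7.28% were called at 1.5-fold. Ythdf3, a cytoplasmic reader, passed the adjusted p but not the fold in both compartments. It measured 46.9 and 48.0 CPM in untreated and 75.8 and 67.6 CPM in treated soma (0.52 ± 0.13, edgeR adjusted p = 0.0216), and 45.5 and 56.4 against 64.9 and 72.7 CPM in neurites (0.47 ± 0.13, edgeR adjusted p = 0.0489). The other cytoplasmic readers had values of the opposite sign in soma: Ythdf2 went from 90.6 and 90.4 to 77.6 and 67.9 CPM (−0.39 ± 0.12, edgeR adjusted p = 0.0584) and Ythdf1 gave −0.33 ± 0.13 (edgeR adjusted p = 0.138). Ythdc2 in soma, described above, gave −0.64 ± 0.19 (edgeR adjusted p = 0.0442), below 2-fold. The demethylases were not called, with Fto at 0.19 ± 0.11 in soma and 0.08 ± 0.11 in neurites and Alkbh5 at 0.03 ± 0.11 and −0.14 ± 0.11. Igf2bp1, at 1.15 to 2.72 CPM in all 16 libraries, gave 0.03 ± 0.28 in soma and −0.35 ± 0.29 in neurites.

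Members of the related lists were called after KCl in WT neurites. Rbm15, an adaptor of the writer complex, rose from 11.3 to 22.0 CPM (1.00 ± 0.18, edgeR adjusted p = 0.00583), and was the 1 writer of 9 called. Among the 11 other binders, Hnrnpa2b1 rose from 188 to 312 CPM (0.76 ± 0.15) and Rbmx from 28.1 to 55.2 CPM (1.01 ± 0.12), both of them nuclear RNA-binding proteins. In WT soma, where a call required 2-fold, none of these 31 genes was called, with differences of 0.89 ± 0.17 for Rbm15, 0.62 ± 0.14 for Hnrnpa2b1 and 0.91 ± 0.12 for Rbmx that passed the adjusted p and 1.5-fold (edgeR adjusted p = 0.00675, 0.0172 and 0.000665). There the medians were −0.26 for writers, 0.18 for binders and −0.16 for CCR4-NOT against 0.00816 for all genes.

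**Figure D4:**
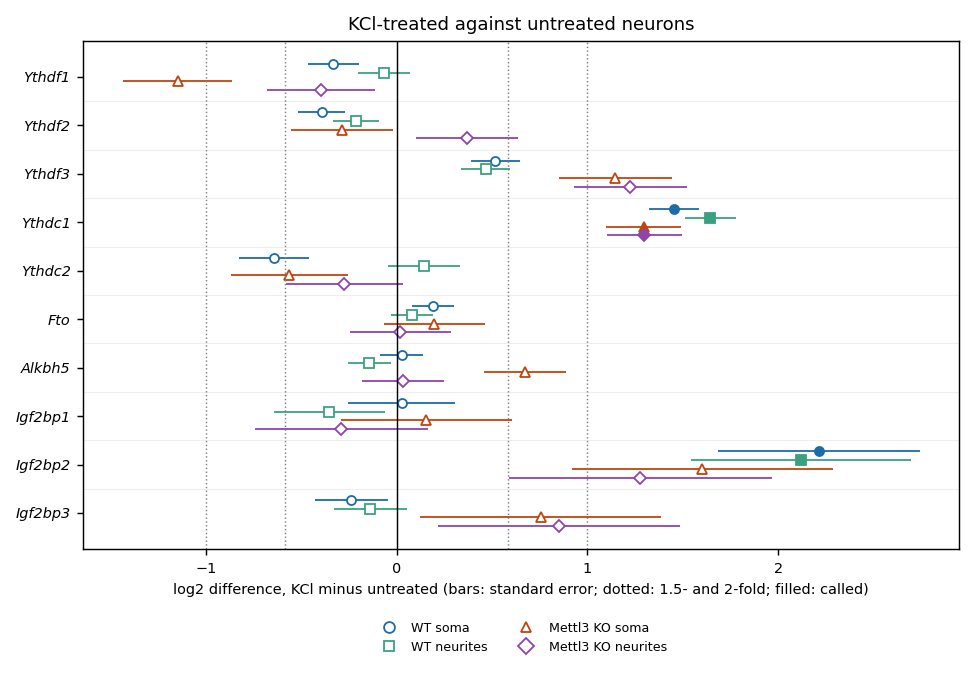
Log2 difference between KCl-treated and untreated neurons (x axis) for the 10 genes in both compartments of WT and Mettl3 KO cultures, with standard errors as bars, dotted lines at the fold thresholds and filled symbols for called differences. Ythdc1 is filled in all 4 (1.29 to 1.64), Igf2bp2 is filled in WT only with wide bars, and Ythdf3 lies to the right of 0 throughout.

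The comparison of Mettl3 KO with WT asks how these genes stood after loss of the methyltransferase. Ythdf3 (ENSMUSG00000047213, chr3:16183212-16217037, plus strand) had the lowest values relative to WT. In untreated soma it measured 46.9 and 48.0 CPM in WT and 20.4 and 17.9 CPM in KO. In untreated neurites it measured 45.5 and 56.4 CPM in WT and 21.8 and 19.1 CPM in KO. KO libraries lay below WT libraries in both compartments, with log2 differences of −1.31 ± 0.30 and −1.32 ± 0.30. Neither was called by edgeR (adjusted p = 0.155 and 0.167). DESeq2 called both (−1.30 and −1.29, adjusted p = 0.00399 and 0.00600). The neurite difference was also called by limma voom (−1.30, adjusted p = 0.00592) and by edgeR on the compared libraries alone (adjusted p = 0.0413). In simulated data of the untreated soma contrast, DESeq2 recovered 82.5% of genes changed 4-fold with 73 false calls, and edgeR recovered 54.5% with 1. The simulation gave WT and KO libraries the same spread per gene. In the data, the SD of the log2 difference between untreated soma replicates was 1.10 in KO and 0.198 in WT. The simulation therefore cannot decide between the calls for Ythdf3. Without insert 1 of the KCl-treated KO neurons, which is no part of this contrast but enters the estimate of the spread, the differences were −1.34 and −1.28 and both were called (edgeR adjusted p = 0.00887 and 0.0126). Without untreated KO soma replicate 1 the soma value was −1.35 and passed (edgeR adjusted p = 0.0309), but the KO arm was then 1 library whose spread came from other groups. In the same untreated contrast the astrocyte marker sum in soma was 1159 to 1182 CPM in WT and 1943 to 2541 in KO, the oligodendrocyte lineage sum 58.0 to 66.5 and 89.2 to 108 and the dividing cell sum 56.7 to 57.2 and 74.2 to 87.9. The microglial sum in soma was 10.4 to 11.4 in WT and 11.9 to 14.3 in KO. In neurites the neuronal sum was 11001 to 13148 CPM in WT and 6693 to 8646 in KO, and the fibroblast and vessel sum 32.5 to 82.9 and 22.0 to 29.7. There the oligodendrocyte lineage sum was 115 to 124 in WT and 132 to 191 in KO, and the dividing cell sum 55.3 to 59.9 and 77.8 to 82.7. The other sums overlapped. The neuronal list includes Camk2a and Map2, for which the paper reports a smaller share of mRNA in neurites of KO neurons. In that sum, cell composition and the location of mRNAs cannot be told apart. The part of these markers in the KO differences was not tested.

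Ythdf3 was also lower after KCl, without overlap. KCl-treated soma held 75.8 and 67.6 CPM in WT against 46.0 and 38.7 CPM in KO (−0.76 ± 0.29, edgeR adjusted p = 0.278). KCl-treated neurites held 64.9 and 72.7 CPM in WT against 63.9 and 31.6 CPM in KO (−0.53 ± 0.29, edgeR adjusted p = 0.294). The value of 63.9 belonged to insert 1, and without that insert the differences were −0.89 and −1.14 (edgeR adjusted p = 0.174 and 0.0801). Within KO, the response of Ythdf3 to KCl was 1.15 ± 0.30 in soma and 1.22 ± 0.30 in neurites (edgeR adjusted p = 0.0996 and 0.0812, not called), and 0.97 and 0.61 without insert 1. DESeq2 called both (1.10 and 1.16, adjusted p = 0.0129 and 0.00769), and without KCl-treated KO neurite replicate 2 edgeR called the neurite value (1.64, adjusted p = 0.00605), which then rested on insert 1. The soma response differed between genotypes by 0.55 ± 0.41 (edgeR adjusted p = 0.991).

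Ythdf1, another cytoplasmic reader, had values of the opposite sign in untreated soma. WT soma held 22.8 and 23.1 CPM, and KO soma held 34.4 and 63.2 CPM. The KO libraries lay above the WT ones but far from each other, and the log2 difference of 1.09 ± 0.29 was not called by edgeR (adjusted p = 0.231) and was called by DESeq2 (1.11, adjusted p = 0.0310). It was 1.52 without KO soma replicate 1, which was called (edgeR adjusted p = 0.00199), and 0.55 without KO soma replicate 2, so that 1 library decided its size; each of these values sets a single KO library against WT, with the spread taken from other groups. In untreated neurites Ythdf1 measured 20.6 and 19.9 CPM in WT and 25.3 and 29.7 CPM in KO (0.44 ± 0.28). After KCl it gave 0.20 ± 0.28 in soma and 0.15 ± 0.28 in neurites. Within KO soma it went from 34.4 and 63.2 to 20.7 and 23.4 CPM with KCl (−1.15 ± 0.29, edgeR adjusted p = 0.0884), which DESeq2 called (−1.20, adjusted p = 0.00614). Without untreated KO soma replicate 1 it was −1.63 (edgeR adjusted p = 0.00127), a value that rests on the 1 library at 63.2 CPM.

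Ythdf2, the reader that recruits the deadenylase, had its largest value after KCl in neurites. WT neurites held 64.5 and 66.6 CPM and KO neurites 147 and 87.3 CPM. The higher KO value came from insert 1, and the log2 difference was 0.84 ± 0.27 (edgeR adjusted p = 0.128), or 0.39 (edgeR adjusted p = 0.507) without insert 1. DESeq2 called it (0.80, adjusted p = 0.0418), and edgeR did when KO neurite replicate 2 was left out instead (1.16, adjusted p = 0.00875), which leaves insert 1 alone. In the other pairs Ythdf2 gave 0.22 to 0.35. Igf2bp3 likewise stood at 16.4 CPM (soma) and 18.5 CPM (neurites) in insert 1 and at 4.46 and 4.35 CPM in KCl-treated KO insert 2, and its KO to WT difference after KCl turned from 0.79 to −0.43 in soma and from 0.29 to −1.12 in neurites without insert 1.

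The remaining genes showed no call between the genotypes by edgeR. Ythdc1 differed by −0.04 ± 0.19 and −0.11 ± 0.19 in untreated soma and neurites and by −0.27 ± 0.19 and −0.42 ± 0.19 after KCl. Fto gave −0.10 to −0.34 over the 4 pairs, Ythdc2 −0.50 to 0.14, Igf2bp1 −0.11 to 0.17 and Igf2bp2 −0.63 to 0.46. Without insert 1 the KCl-treated soma and neurite values were 0.12 and −0.17 for Fto and 0.05 and −0.89 for Ythdc2. They were −0.58 and −0.42 for Igf2bp1 and −0.98 and −1.40 for Igf2bp2. Alkbh5 in KCl-treated soma measured 45.0 and 50.1 CPM in WT and 56.3 and 75.8 CPM in KO (0.47 ± 0.21, edgeR adjusted p = 0.339). Without insert 1 its difference was 0.67. By edgeR 0 of the 10 genes were called in untreated soma, untreated neurites, KCl-treated soma or KCl-treated neurites, where 0.189%, 0.171%, 0.227% and 0.433% of 23335 genes were called. An unadjusted p of at most 0.05 was reached by 2, 1, 2 and 2, a limit at which no share of all genes was taken. DESeq2 called 2, 1, 0 and 1, the Ythdf1, Ythdf3 and Ythdf2 values above, and its larger counts over all genes are given with the processing below. No writer, other binder or CCR4-NOT subunit was called by edgeR in any of the 4. In KCl-treated KO neurites the medians were 0.29, 0.55 and 0.35 for these lists against 0.0917 for all genes.

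**Figure D5:**
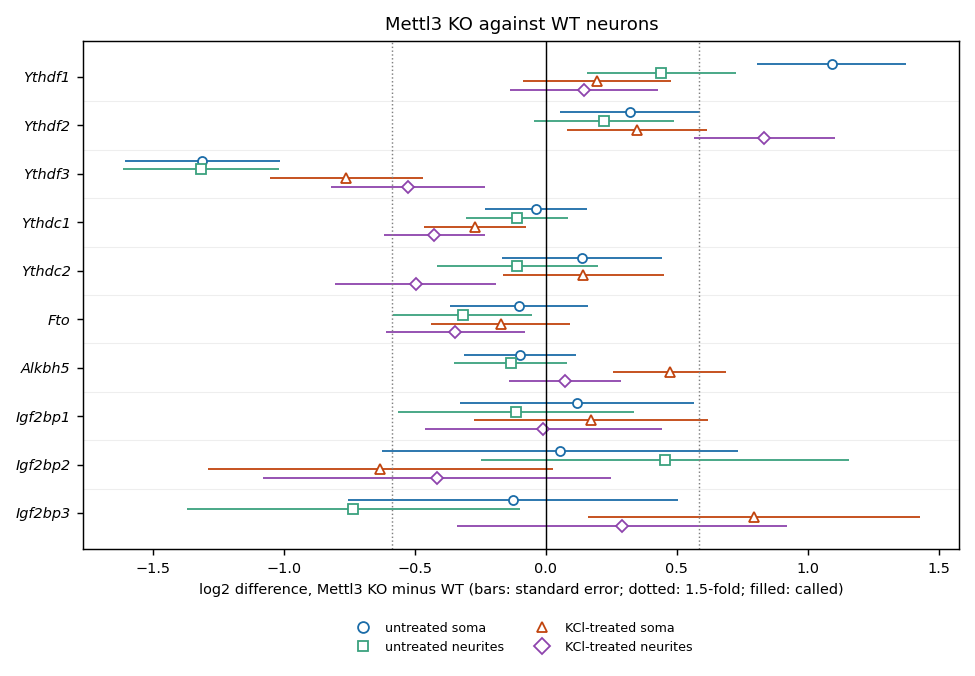
Log2 difference between Mettl3 KO and WT neurons (x axis) for the 10 genes in untreated and KCl-treated soma and neurites, with standard errors as bars and dotted lines at 1.5-fold; a filled symbol would mark a called difference. No symbol is filled, Ythdf3 lies to the left in all 4 comparisons (−1.32 to −0.53) and Ythdf1 in untreated soma lies farthest to the right (1.09).

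Neurite enrichment within KO neurons gave 0 calls among the 10 genes in untreated and in KCl-treated cultures, where 0% of genes were called in either by edgeR. DESeq2 also called 0 of the 10, and over all genes 770 higher and 170 lower untreated. At an unadjusted p of at most 0.05 there were 1 and 0, again with no share of all genes taken at that limit. Ythdf1 in untreated KO went from 34.4 and 63.2 CPM in soma to 25.3 and 29.7 CPM in neurites (−0.83 ± 0.28, edgeR adjusted p = 0.240), and was called without soma replicate 1 (−1.29, edgeR adjusted p = 0.00411). Fto had 182 and 143 CPM in KO soma and 208 and 199 CPM in KO neurites (0.32 ± 0.27), close to its WT value of 0.45. The difference of enrichment between genotypes passed the unadjusted limits for 0 of the 10 genes, where 4.29% of genes passed untreated and 1.85% after KCl. The largest were −0.59 ± 0.32 for Ythdf1 untreated, called without KO soma replicate 1 (−0.96) or KO neurite replicate 1 (−0.91), and −0.67 ± 0.33 for Ythdc2 after KCl, which was −0.94 and called without insert 1. Igf2bp3 untreated gave −0.55 ± 0.39 and was called without KO soma or KO neurite replicate 2 (−0.86 and −0.85). In the response of KO soma and neurites to KCl, Ythdc1 was the 1 gene of 10 called, where 1.17% and 0.969% of genes were, and the difference of the soma response between genotypes gave 0 calls, where 0% of genes were called. Its smallest unadjusted p was 0.0457, for Ythdf1 (−0.89 ± 0.40), and Ythdf1 was called without untreated KO soma replicate 1 (−1.33).

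The genes whose pattern over the 8 WT libraries was most like that of each member were ranked by Pearson's r of log2 CPM among the 12335 protein-coding genes whose mean count over these libraries reached 100. The 8 libraries share the 4 groups, so r mostly describes group differences. Ythdc1 was most like Eprs (0.999) and Herpud1 (0.996), Ythdf3 like Zfp367 (0.993) and Traf7 (0.992), and Fto like Efr3a (0.992) and Klc1 (0.990). Alkbh5 was most like Cplx1 (0.986) and Siah3 (0.985), Igf2bp3 like Prob1 (0.987) and Enah (0.984), and Ythdf1 like Nudcd2 (0.982) and Cnpy2 (0.977). Ythdf2 followed E130311K13Rik (0.979) and Rnf8 (0.979), Igf2bp2 followed Kit (0.977) and Clcn5 (0.977), and Ythdc2 followed Ndfip2 (0.955) and Mia2 (0.923). Igf2bp1 was below that mean count and was not ranked.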

How the data were processed

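Libraries of 50 ng RNA were grouped by the labels. For RNA-seq, the authors aligned reads to mm10 with STAR 2.7.7a and counted fragments per gene over exons with featureCounts 2.0.1 (Ensembl 97), counting multimapping reads, and these counts are deposited without normalization. The authors' DART-seq tables give a score per RNA, the summed C-to-U fraction of its sites, and a mean WT fraction per site, from Bullseye with WT compared against KO libraries. The site coordinates and names, deposited as other values, were also read. The deposited DESeq2 tables hold a mean signal scaled by size factors, fold changes and p-values; only their identifiers, symbols and biotypes were used, and authors' comparison columns were not.

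Counts were tested with edgeR 4.0.16 (quasi-likelihood, TMM scaling, Benjamini-Hochberg) over genes whose mean count reached 10, leaving out 37 mitochondrially encoded genes. WT comparisons used the 8 WT libraries and KO comparisons all 16. A call required an adjusted p of at most 0.05 and 1.5-fold (2-fold for KCl in soma); changes of enrichment, fitted with insert terms, used the unadjusted p. In simulated data of the WT and 16-library fits, edgeR recovered 100% and 54.5% of 200 genes changed 4-fold, with 20 and 1 false calls. DESeq2 recovered 100% and 82.5%, with 31 and 73 false calls. In the 16-library simulation WT and KO libraries shared the same spread per gene, unlike the data. Alternatives were DESeq2 1.42.0, limma 3.58.1 voom, other scaling, filters, blocks and sample sets. The named genes are the 10 members, called genes of 3 related lists and, per member, the 2 genes most like it. Members and lists were chosen with earlier results of these data known. Sequences came from the GRCm38 genome and RefSeq promoters, which listed 7 of the members used here.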

Additional observations from a re-analysis of the deposited data

Results flagged for a closer look

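Ythdc2, a helicase with a YTH domain, was the 1 result that differed between treatments by a test of the difference itself. Its neurite enrichment in WT neurons was higher after KCl than before by 0.79 on the log2 scale (0.23 SE, edgeR unadjusted p = 0.00795, adjusted p = 0.999). The soma level went from 13.1 and 10.02 CPM to 7.25 and 8.37 CPM, and the neurite level from 10.02 and 8.33 CPM to 9.36 and 10.5 CPM. The limits used here were passed by 3.36% of all genes, and by 0% with adjusted p-values.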

How the results depend on the processing

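No called value among the 10 genes changed sign under any alternative. Ythdc1 kept both WT calls throughout. Counts of called genes moved as follows. Neurites against soma in KCl-treated WT went from 1 to 0 under RLE scaling, voom, the replicate block, all 16 libraries and the compared libraries alone. KCl in WT soma went from 2 to 1 with 16 libraries. KCl in WT neurites went from 2 to 1 under RLE scaling, a mean count of at least 100, voom, the replicate block, 16 libraries and the compared libraries alone, each time through Igf2bp2. The change in WT enrichment went from 1 to 0 with adjusted p or 16 libraries. KO against WT went from 0 to 2 (DESeq2) and 1 (without KCl-treated KO insert 1) in untreated soma, from 0 to 1 in untreated neurites (DESeq2, voom, compared libraries alone, without insert 1) and from 0 to 1 in KCl-treated neurites (DESeq2). KCl in KO soma and in KO neurites went from 1 to 3 and from 1 to 2 with DESeq2 and to 0 with voom or the compared libraries alone. The KO difference of enrichment after KCl went from 0 to 1 with a mean count of at least 100 or without insert 1, through Ythdc2. Leaving out 1 library gave 0 to 1 calls for untreated WT enrichment, 0 for enrichment in KCl-treated WT, 1 to 2 for KCl in WT soma and neurites, 0 to 1 for the change in enrichment, 0 to 2 for KO in untreated soma, 0 to 1 in KCl-treated neurites, 0 to 1 for untreated KO enrichment, 0 to 2 for KCl in KO soma and neurites, and 0 to 1 for each difference between genotypes. As a mean per site, the Fto editing score was 0.0502 in place of 0.251. The cause of these moves was not tested.

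Over all genes, calls in KO against WT moved from 15 higher and 29 lower in untreated soma to 189 and 224 with DESeq2, from 14 and 26 in untreated neurites to 113 and 193, from 11 and 42 in KCl-treated soma to 558 and 465, and from 23 and 78 in KCl-treated neurites to 1580 and 994. KCl in KO soma moved from 227 and 46 to 745 and 477, and in KO neurites from 212 and 14 to 987 and 354. Untreated KO neurites against soma moved from 0 to 770 and 170 with DESeq2 and to 1317 and 114 with no filter. With 16 libraries, calls between WT neurites and soma went from 2085 and 1048 to 0. The unadjusted calls for the change in WT enrichment were 465 higher and 314 lower, and 343 and 447 under RLE scaling.

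Replicate numbers of WT soma and neurites did not deviate together (correlations of −0.133 untreated and 0.0330 after KCl), whereas those of KO gave 0.0751 untreated and 0.897 after KCl, where insert 1 stands apart. With 2 replicates and no label that ties the numbers, the replicate block was kept as an alternative. The main tests of KCl and of neurites against soma thus left out the pairing by insert and litter that the paper describes. The changes of enrichment did take the replicate number as the insert, which the labels do not state. It moved 2 of 13 counts, those above for Igf2bp3 (log2 0.66, edgeR adjusted p = 0.0565) and Igf2bp2 (2.12, edgeR adjusted p = 0.0776), and fits with no replicate block for the changes of enrichment moved 0 of 3. Crossing the untreated WT neurite numbers, chosen after seeing the data as was leaving out insert 1, moved 0 of 3 counts. Depth limits Igf2bp1 and Igf2bp2.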
